A study of Rattus norvegicus with 28 samples.

Results

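The genes described are the integrin subunits, the selectins, the intercellular adhesion molecules (ICAMs), Vcam1 and the numbered cadherins of the rat spinal cord, taken as every gene name that begins with Itga, Itgb, Icam or Cdh and a digit, together with Vcam1 and selectins, among them Sele and Selp. The rule found 53 of 35469 gene names, on 69 of 41012 probes and 96 of 43379 spots of a 1-colour oligonucleotide array. It used names alone and no measured value, and it also took in 3 genes named after integrins that encode no subunit (Itgb1bp1, Itgb1bp2 and Itgb3bp). The study followed gene expression in the contused thoracic spinal cord over 8 weeks and asked how neural progenitor cells (NPCs) changed it. All groups were adult female Sprague Dawley rats with 4 arrays each, and RNA came from 1.5 cm of cord around the lesion centre without the dura. T0 was called sham in the labels and uninjured in the methods. T1, T2, T4 and T8 were taken 1, 2, 4 and 8 weeks after a contusion of 250 kdyn at the eighth thoracic vertebra. T1_NPC received NPCs directly after the contusion and was taken at 1 week, whereas T2_NPC received them 1 week after it and was taken at 2 weeks. The NPCs were cultured from spinal cords of adult rats, so that a rat array cannot tell their transcripts from those of the host. Injured controls were injected with cell-free medium per the methods, which also list the immunosuppressant tacrolimus from the day before transplantation among the care of all animals. Ages beyond adult were not given in the sources used here.

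Integrins are heterodimers of an alpha and a beta chain that couple the extracellular matrix or ligands on other cells to the actin cytoskeleton. Leukocytes leave the blood when selectins let them roll on the vessel wall and their beta 2 and alpha 4 integrins then bind ICAMs and VCAM1 on the endothelium. Cadherins hold cells of like kind together through calcium-dependent contacts, anchored inside the cell by catenins, and different members mark neurons, glia, vessels and epithelia.

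Levels are log2 values of the authors' quantile-normalised table, averaged over the probes of a gene, and a difference is a log2 difference between group means with its standard error (SE). The SE rests on a variance pooled over all groups, so arrays outside a comparison also enter it. Leaving out such an array can change the variance and the p-value but not the difference. A gene was called when its adjusted p in limma, by the Benjamini-Hochberg method over all 35469 gene names, was under 0.05. Every column of the value table had the rank order of exactly 1 scanner file, which was deposited under the same sample for 12 arrays and under another sample for 16. All results therefore hold for the sample names of the value table: with scanner files taken under their deposited samples none of the 53 genes was called in any comparison with T0, as the closing section details. Arrays of T0 to T8 were spread over 2 scan sessions, and all genes called against T0 kept their sign in both sessions. The genes had been called on these same arrays, so their signs are no separate check on session. Session 1 held 1 array of T1 and 1 of T4. Slide and session were read from the scanner file matched by rank, so for 16 arrays they rest on that match. By it T1_NPC and T2_NPC were each hybridised on a slide of their own in another session, so transplantation and slide cannot be told apart. The scanner files deposited under T1_NPC also came from a slide of their own, but in session 2. Replicate 2 of T1_NPC stood apart from its group. Its mean level of 7 microglia and macrophage markers was 10.87 against up to 12.43 on the others. Among markers of the cell types the tissue could hold, 7 of 7 of macrophages, 6 of 6 of T cells, 6 of 6 of fibroblasts, 4 of 5 of Schwann cells, 3 of 7 of endothelium, 3 of 6 of skeletal muscle, 2 of 6 of neutrophils, 1 of 6 of astrocytes, 1 of 6 of platelets and 0 of 3 of red blood cells rose at T1, while 5 of 6 of neurons, 5 of 7 of oligodendrocytes, 3 of 6 of astrocytes, 3 of 6 of platelets, 1 of 7 of endothelium and 1 of 6 of skeletal muscle fell. The study describes the 4 arrays of a group as biological replicates, and the number of arrays limits the precision.

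After contusion 34 of the 53 genes were called at T1, 21 higher and 13 lower, where 44.1% of all gene names were called (19.1% higher and 25.1% lower). The T2 comparison gave 16 higher and 13 lower, beside 40.0% of all gene names (17.7% and 22.2%). For T4 the counts were 16 and 13, beside 38.5% (17.5% and 21.0%), and for T8 20 and 12, beside 39.7% (18.2% and 21.5%). The 4 comparisons share the T0 arrays. The median difference of the 53 genes was 0.32, 0.18, 0.15 and 0.28 in time order, beside -0.10, -0.05, -0.06 and -0.04 over all gene names. Of the 53 genes 25 were called in 1 direction at all 4 times, 15 higher and 10 lower, where 28.2% of all gene names were (12.3% higher and 15.9% lower). A further 18 genes were called at some of the times and 10 at none.

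The 15 genes that rose at all 4 times were the leukocyte chains Itgam, Itgal, Itgb2, Itga4 and Itgb7, the matrix-binding chains Itga1, Itga10, Itga5, Itga6, Itgb1 and Itgb4, the ligand Icam1, and the cadherins Cdh1, Cdh5 and Cdh17. The 10 that fell at all 4 times were all cadherins: Cdh2, Cdh7, Cdh8, Cdh9, Cdh10, Cdh13, Cdh15, Cdh16, Cdh22 and Cdh23. Itga2, Itga3, Itga8, Itgav, Itgb1bp2, Icam5, Selp, Cdh3 and Cdh26 were among those called at none.

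**Figure D1:**
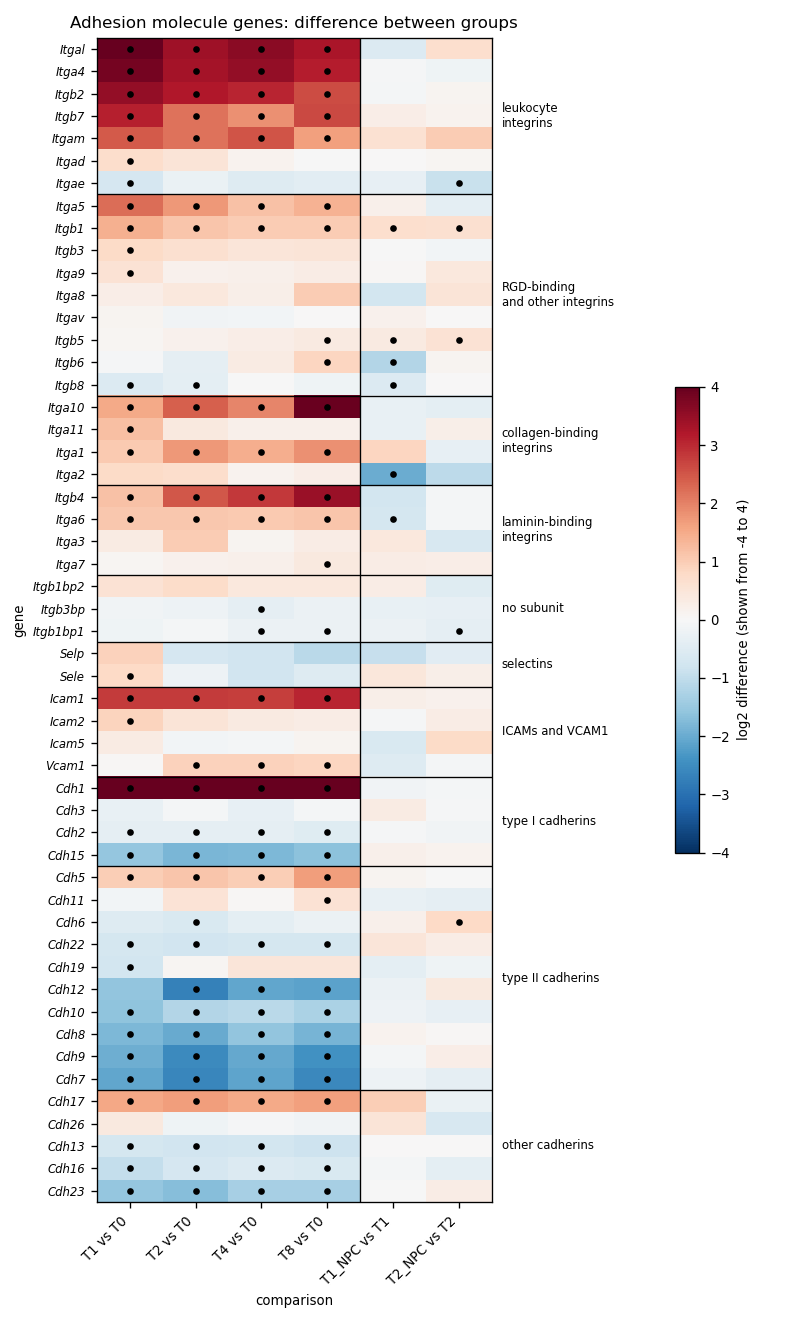
Log2 difference of 52 of the 53 adhesion genes (rows, grouped by family) in 6 comparisons (columns), with T1, T2, T4 and T8 against T0, T1_NPC against T1 and T2_NPC against T2. Colour runs from -4 to 4 and is clipped there, and black dots mark genes called by limma (34, 29, 29, 32, 6 and 5 genes).

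Most leukocyte integrins rose. All 7 measured genes of this group were called at T1, 6 higher and 1 lower, with a median difference of 3.12 (2.47 with the dim gene Itga4 at its bound, explained with its values), and at T8 5 were higher. Over all gene names 19.1% were higher and 25.1% lower at T1, with a median of -0.10, and 18.2% were higher at T8. Itgam (CD11b), the alpha chain of complement receptor 3 on macrophages, microglia and neutrophils, and Itgal (CD11a), the alpha chain of LFA-1, each had a probe that crosses an exon junction. The pair is shown with the longest stretch they share in capitals, TTGGNTTNTTCAAACG with at most 2 mismatched bases as N, which no other of the 41012 probes held. It was chosen from these probes, and background knowledge places it in the membrane-proximal tail that integrin alpha chains have in common.
Itgam probe, rn4 chr1:187385032-187385565, plus strand: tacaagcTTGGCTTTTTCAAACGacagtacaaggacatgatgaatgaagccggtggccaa
Itgal probe, rn4 chr1:186594579-186597988, plus strand: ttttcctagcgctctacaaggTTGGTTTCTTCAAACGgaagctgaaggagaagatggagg

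Itgam levels were 7.53, 8.58, 7.72 and 9.01 at T0, and 9.90, 11.37, 9.74 and 11.71 at T1. Later they were 11.19, 9.99, 10.23 and 10.16 (T2), 10.29, 11.29, 10.63 and 10.64 (T4), and 10.11, 8.80, 9.83 and 10.702 (T8). The injured arrays lay above all T0 arrays except 1 array of T8. Itgam rose by 2.47 ± 0.45 (SE, adjusted p = 8.76e-05) at T1 and 1.65 ± 0.45 (SE, adjusted p = 0.00476) at T8, or 5.53-fold and 3.14-fold. Itgb2 (CD18), the beta chain that pairs with both, was at 10.12, 10.37, 9.91 and 10.13 at T0, and 13.28, 13.96, 13.36 and 13.98 at T1. At later times it was at 13.22, 13.00, 13.24 and 13.86 (T2), 13.22, 13.39, 13.13 and 13.05 (T4), and 12.80, 12.49, 13.11 and 12.55 (T8), with no overlap between T0 and any injured group. Itgb2 rose by 3.51 ± 0.23 (SE, adjusted p = 1.61e-11) at T1, by 3.20 and 3.06 at T2 and T4, and by 2.60 at T8.

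Itgal was at 2.95, 3.53, 2.62 and 3.48 at T0, and 7.12, 7.73, 7.05 and 8.01 at T1, and at 6.72, 6.34, 6.11 and 6.97 (T2), 6.91, 7.35, 6.14 and 6.57 (T4), and 6.50, 6.09, 6.51 and 6.55 (T8). No injured array came near the T0 arrays. Itgal rose by 4.33 ± 0.39 (SE, adjusted p = 4.94e-09) at T1 and 3.27 ± 0.39 (SE, adjusted p = 4.93e-07) at T8, and at T0 it was well above background on 2 of 4 arrays. The lowest signals well above background on the T0 arrays were 4.10, 3.90, 4.02 and 4.09. All T0 levels of Itgal, averaged over its probes, lay below them, which limits the size of its rises. Itga4, the alpha chain of VLA-4 that binds VCAM1 and fibronectin, was at 1.44, 2.67, 3.13 and 3.38 at T0, and 6.12, 6.71, 6.24 and 6.86 at T1. At T2, T4 and T8 its arrays ran from 5.58 to 6.65, 6.11 to 6.25 and 5.59 to 6.10, all above T0. Itga4 was well above background on no T0 array. A gene that is so in a whole group has only a bound there, taken as the higher of its own signal and the lowest signal that was well above background on each array. Itga4 was thus at least 5.50-fold, 3.85-fold, 4.45-fold and 3.41-fold higher at T1, T2, T4 and T8 (limma adjusted p = 8.15e-10, 1.21e-08, 5.70e-09 and 3.04e-08).

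Itgb7, which pairs with Itga4 in gut-homing lymphocytes, rose by 3.12 ± 0.25 (SE, adjusted p = 7.85e-10) at T1 and 2.63 ± 0.25 (SE, adjusted p = 1.87e-08) at T8, from 5.17 to 5.78 on the T0 arrays to 8.13 to 9.13 at T1. Itgad (CD11d) rose at T1, by 0.71 ± 0.25 (SE, adjusted p = 0.0265), and its later differences were 0.53, 0.15 and -0.02. Itgae (CD103), which binds E-cadherin, fell with a difference of -0.68 ± 0.24 (SE, adjusted p = 0.026) at T1, and this call was lost without T0 replicate 1, T0 replicate 3 and T1 replicate 1 (-0.71 to -0.65). Its 2 probes differed by -0.84 and -0.52 at T1, and 1 of them was called. Markers moved alongside. The mean level of the 7 microglia and macrophage markers ran from 9.68 to 9.75 at T0 and from 12.31 to 12.62 at T1, all 7 rose, and that of 6 T cell markers ran from 4.25 to 4.69 and from 5.74 to 6.46. Their part in these differences was not tested, and in bulk tissue more cells of a type and more RNA per cell cannot be told apart.

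**Figure D2:**
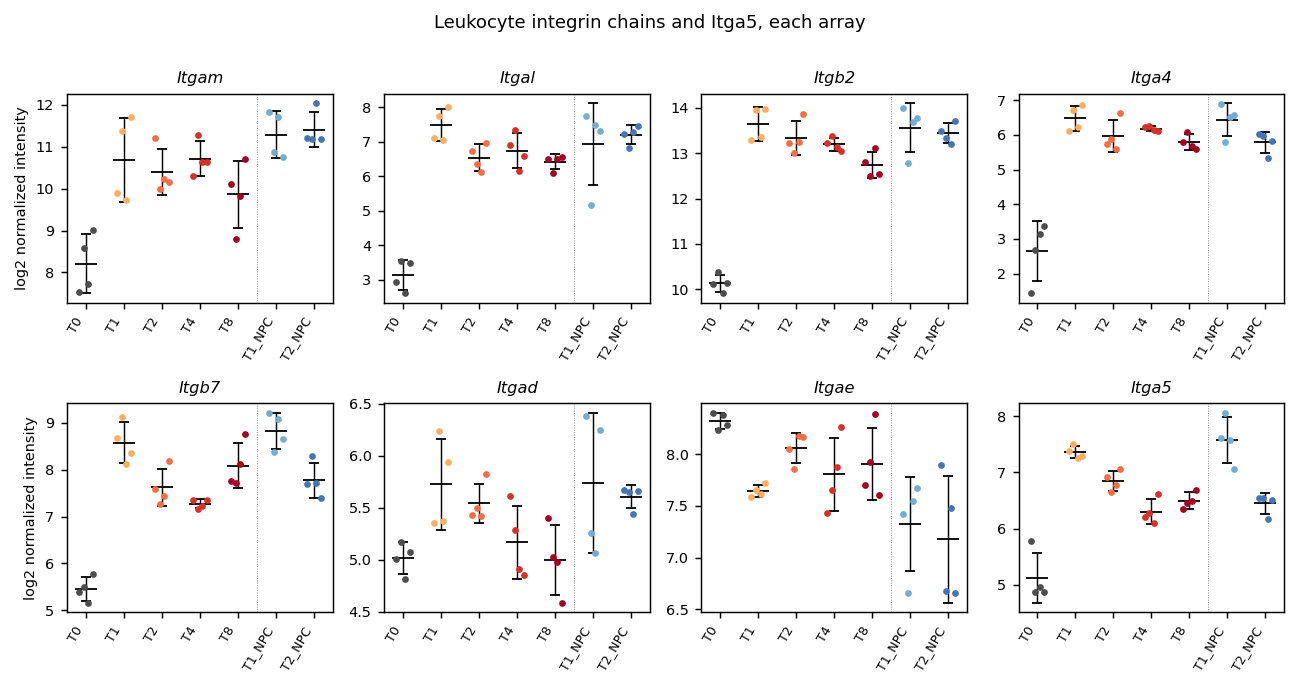
Level of 7 leukocyte integrin genes and of Itga5 (log2, y axis) in the 7 groups (x axis), with a point for each array and a bar for the mean ± SD of 4 arrays. Itgb2 lay between 9.91 and 10.37 at T0 and between 13.28 and 13.98 at T1, and Itgae at 8.23 to 8.39 and 7.58 to 7.72.

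Promoters of the members are available for 34 of 53 genes (RefSeq, GRCr8, 250 bases before the start). They were searched on both strands for GAGGAA, a core of the sites of myeloid factors of the ETS family, for TATAAA, and for the kappa-B consensus. GAGGAA stood in 23.3% of all 33469 promoters and in 12 of the 34, TATAAA in 12.9% and in 4, and the kappa-B consensus in 6.33% and in 3 (Vcam1, Itga5 and Cdh12). The 12 with GAGGAA were Itgam, Itga5, Itga11, Itgae, Itgav, Itgb1, Itgb6, Itgb1bp1, Cdh6, Cdh8, Cdh10 and Cdh22. They include genes that rose, genes that fell and a gene called at no time. The promoters of Itgam, Icam1 and Vcam1 are shown because these genes carry the leukocyte and ligand results, with matches in capitals. In Itgam GAGGAA lies 151 to 146 bases before the start and its reverse complement 39 to 34 bases before it. Icam1 has TATAAA 53 to 48 bases before the start. Vcam1 has a kappa-B match 93 to 84 bases before the start and TATAAA on both strands, 60 to 55 and 62 to 57 bases before it, which overlap. A match describes letters and not a bound site.
Itgam promoter, GRCr8 chr1:192089342-192089591, plus strand: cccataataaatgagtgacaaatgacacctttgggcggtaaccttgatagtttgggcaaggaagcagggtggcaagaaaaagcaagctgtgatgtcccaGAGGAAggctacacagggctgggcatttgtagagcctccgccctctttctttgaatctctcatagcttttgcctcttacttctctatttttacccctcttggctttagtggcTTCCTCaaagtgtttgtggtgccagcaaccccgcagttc
Icam1 promoter, GRCr8 chr8:27829595-27829844, plus strand: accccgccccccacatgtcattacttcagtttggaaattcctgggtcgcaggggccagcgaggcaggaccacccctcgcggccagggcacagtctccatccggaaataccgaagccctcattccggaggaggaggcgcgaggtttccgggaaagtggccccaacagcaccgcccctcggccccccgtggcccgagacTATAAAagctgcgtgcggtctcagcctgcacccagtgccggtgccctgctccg
Vcam1 promoter, GRCr8 chr2:206742784-206743033, minus strand: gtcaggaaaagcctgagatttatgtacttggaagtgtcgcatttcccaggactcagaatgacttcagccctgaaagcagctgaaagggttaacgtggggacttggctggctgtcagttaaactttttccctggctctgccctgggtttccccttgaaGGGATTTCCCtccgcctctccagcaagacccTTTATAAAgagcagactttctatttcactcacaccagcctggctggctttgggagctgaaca

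Of the vessel-wall ligands, Icam1 rose early and stayed high, whereas Vcam1 rose from T2 on. Icam1, the ligand of Itgal and Itgam paired with Itgb2, was at 9.05, 9.17, 9.19 and 9.21 at T0, and 11.82, 12.09, 11.74 and 12.10 at T1. It was at 12.14, 11.68, 11.87 and 12.17 (T2), 11.93, 11.93, 11.85 and 11.98 (T4), and 12.16, 11.83, 12.24 and 12.53 (T8). T0 lay below every injured array. Icam1 rose by 2.79 ± 0.14 (SE, adjusted p = 1.17e-13) at T1, by 2.81 and 2.77 at the next times and by 3.03 ± 0.14 (SE, adjusted p = 4.45e-14) at T8.

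Vcam1, the ligand of Itga4 with Itgb1, was at 14.27, 14.14, 13.97 and 14.18 at T0, and 13.94, 13.99, 14.22 and 14.60 at T1, and these overlapped. From T2 it was at 15.65, 14.84, 14.88 and 14.83 (T2), 15.08, 15.06, 15.04 and 15.12 (T4), and 15.05, 15.19, 15.04 and 14.68 (T8), above all T0 and T1 arrays. Its difference from T0 was 0.05 ± 0.22 (SE, adjusted p = 0.89) at T1 and 0.91 ± 0.22 (SE, adjusted p = 0.00174) at T2, followed by 0.94 and 0.85 at T4 and T8. Icam2, carried by resting endothelium, rose by 0.88 ± 0.31 (SE, adjusted p = 0.0236) at T1, a call lost without T0 replicate 1, T1 replicate 2 and T1 replicate 4 (0.76 to 1.06), and later differed by 0.52, 0.37 and 0.31. Icam5 (telencephalin), known from forebrain neurons, differed by 0.32 at T1 and was called at no time.

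Of the selectins, Sele (E-selectin), made by activated endothelium, rose by 0.79 ± 0.31 (SE, adjusted p = 0.0451) at T1, from 5.00, 5.95, 5.38 and 5.82 at T0 to 6.38, 6.84, 6.09 and 6.005 at T1. The groups did not overlap. When 1 array was left out in turn the call passed in 19 of 28 such fits (0.61 to 0.93), and it was lost when each array was scaled to its upper quartile or the slide was a block. At T2, T4 and T8 Sele differed by -0.21, -0.77 and -0.53. Selp (P-selectin), stored by endothelium and platelets, was well above background on 1 T0 and 1 T1 array and on none elsewhere. Selp was at 2.86, 1.33, 4.87 and 1.34 at T0, and 2.94, 4.76, 3.27 and 3.14 at T1, with T0 and T1 overlapping, and no fold from T0 is given. Of 7 endothelial markers 3 rose and 1 fell at T1, and their mean level ran from 8.06 to 8.66 at T0 and from 8.68 to 8.95 at T1. Their part in the ligand differences was not tested.

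**Figure D3:**
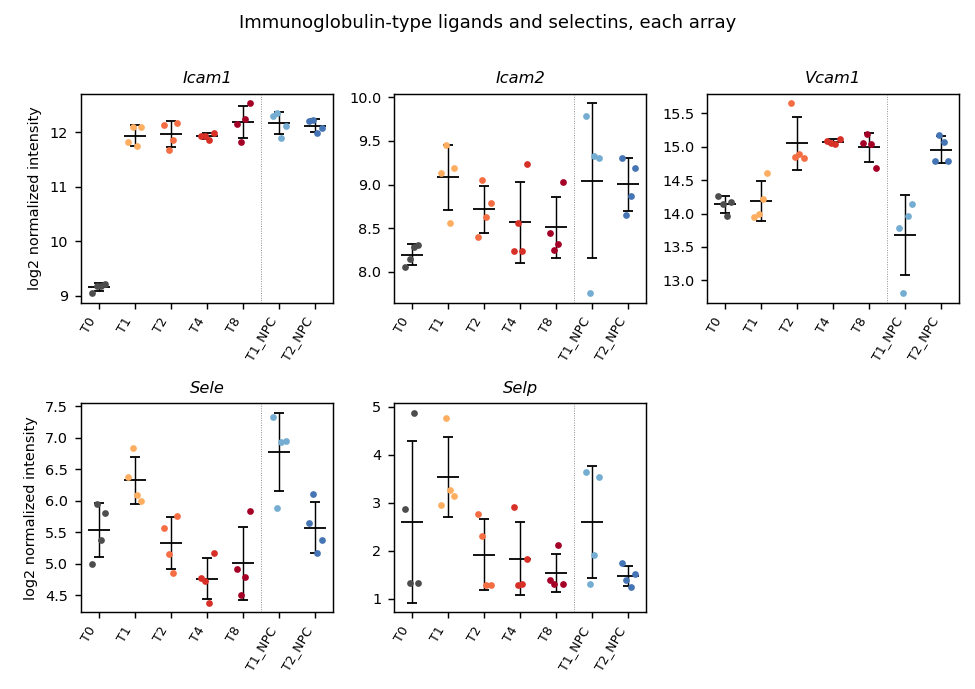
Level of Icam1, Icam2, Vcam1, Sele and Selp (log2, y axis) in the 7 groups (x axis), with a point for each array and a bar for the mean ± SD of 4 arrays. Icam1 rose from 9.05 to 9.21 at T0 to 11.74 to 12.10 at T1, and Vcam1 overlapped T0 at T1 and lay above it at T2, T4 and T8.

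Among the matrix-binding integrins, chains for collagen and laminin rose, some of them further with time. Itgb1, the common beta chain of most matrix receptors, was at 10.61, 10.37, 10.52 and 10.41 at T0, and 11.84, 12.09, 11.60 and 12.02 at T1. It was at 11.43, 11.46, 11.59 and 11.87 (T2), 11.44, 11.54, 11.39 and 11.63 (T4), and 11.43, 11.54, 11.50 and 11.51 (T8), above T0 throughout. Itgb1 rose by 1.41 ± 0.12 (SE, adjusted p = 1.43e-09) at T1 and 1.01 ± 0.12 (SE, adjusted p = 3.28e-07) at T8. Of the 4 collagen-binding alpha chains 3 rose at T1 and 2 at T8, beside 19.1% and 18.2% of all gene names. Itga1 rose by 1.04 ± 0.36 (SE, adjusted p = 0.022) at T1 and 1.81 ± 0.36 (SE, adjusted p = 2.54e-04) at T8, Itga11 by 1.20 ± 0.23 (SE, adjusted p = 1.35e-04) at T1 and 0.20 at T8, the latter not called, and Itga2 differed by 0.76 at T1 without a call.

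Itga10, known from cartilage, was at 3.28, 4.31, 3.70 and 4.33 at T0, and 4.99, 6.09, 6.15 and 4.38 at T1. At T2, T4 and T8 it was at 6.82, 5.62, 5.98 and 6.72 (T2), 6.29, 5.75, 4.09 and 7.34 (T4), and 7.62, 7.46, 7.78 and 8.50 (T8). The T8 arrays lay above those of T0, T1, T2 and T4. It rose by 1.50 ± 0.49 (SE, adjusted p = 0.0145) at T1 and 3.94 ± 0.49 (SE, adjusted p = 7.04e-07) at T8. The lowest signals well above background on the T0 arrays were 4.10, 3.90, 4.02 and 4.09. Itga10 lay below them in T0 replicates 1 and 3 and little above them in replicates 2 and 4, which limits the size of its rises. The T1 call was lost without T0 replicate 1, T1 replicate 2 and T1 replicate 3 (1.25 to 1.84), after normexp background correction and with the slide as a block.

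Itgb4, the partner of Itga6 in hemidesmosomes and in Schwann cells, was at 12.47, 12.41, 12.49 and 12.47 at T0, and 13.33, 13.74, 13.72 and 13.73 at T1. It was at 15.39, 14.55, 14.90 and 14.98 (T2), 15.29, 15.20, 15.18 and 15.48 (T4), and 15.75, 15.78, 15.88 and 16.19 (T8). Its groups stood in the order T0, T1, T2, T4 and T8 by mean, and T2 and T4 overlapped. Itgb4 rose by 1.17 ± 0.42 (SE, adjusted p = 0.027) at T1, by 2.49 and 2.82 at the next times and by 3.44 ± 0.42 (SE, adjusted p = 6.34e-07) at T8, and the T1 call was lost without T0 replicate 2, T1 replicate 2, T1 replicate 3 and T1 replicate 4 (1.13 to 1.27). T0 and T1 did not overlap. The pooled SE also holds T1_NPC replicate 2, which was far lower for Itgb4 than the other T1_NPC arrays. Itga6, a laminin receptor chain, rose by 1.07 ± 0.22 (SE, adjusted p = 2.87e-04) at T1 and 1.096 at T8. Itga7, also for laminin, rose at T8 by 0.38 ± 0.13 (SE, adjusted p = 0.0195), where its 2 probes differed by 0.01 and 0.75, and Itga3 was not called. Schwann cell markers moved with time too: their mean level ran from 7.14 to 7.65 at T0, 8.90 to 10.14 at T1 and 11.04 to 11.51 at T8, and all 5 rose at T8. Their part in the Itgb4 differences was not tested.

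Itga5, the fibronectin receptor chain, was at 5.78, 4.88, 4.96 and 4.88 at T0, and 7.38, 7.50, 7.26 and 7.29 at T1, and at 6.92, 6.64, 6.77 and 7.06 (T2), 6.21, 6.28, 6.10 and 6.62 (T4), and 6.35, 6.46, 6.50 and 6.69 (T8). Every injured array exceeded the T0 arrays, and those of T8 lay below those of T1. Itga5 rose by 2.24 ± 0.19 (SE, adjusted p = 1.69e-09) at T1 and 1.38 ± 0.19 (SE, adjusted p = 3.29e-06) at T8. Its 3 probes disagreed, so a probe that did not rise and one that did are shown. The first differed by 0.30 at T1 and -0.17 at T8, and the second by 3.19 and 2.09, and the third probe, not shown, by 3.22 and 2.20.
Itga5 probe that did not rise, rn4 chr7:142264541-142264768, minus strand: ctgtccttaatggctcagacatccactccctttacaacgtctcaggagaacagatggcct
Itga5 probe that rose, rn4 chr7:142256592-142258568, minus strand: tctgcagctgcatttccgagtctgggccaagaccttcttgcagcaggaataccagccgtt

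Of the other integrin chains, Itga9 rose at T1 by 0.59 ± 0.15 (SE, adjusted p = 0.00232) and Itgb3, the beta chain shared with the platelet fibrinogen receptor, by 0.75 ± 0.28 (SE, adjusted p = 0.0306). The T0 and T1 arrays of Itgb3 overlapped, and its later differences of 0.65, 0.49 and 0.52 were not called. Itgb5, which pairs with Itgav, rose at T8 by 0.35 ± 0.11 (SE, adjusted p = 0.0173), a call lost without T0 replicate 1 (0.25 to 0.40). Itgb6, known from epithelia, rose at T8 by 0.86 ± 0.34 (SE, adjusted p = 0.0498) and, with each array left out in turn, passed in 8 of 28 such fits (0.67 to 1.01). Itgb8, which pairs with Itgav on astrocytes, fell with a difference of -0.53 ± 0.13 (SE, adjusted p = 0.00216) at T1 and -0.38 ± 0.13 (SE, adjusted p = 0.0258) at T2, and the T2 call was lost without T0 replicate 2, T0 replicate 3, T0 replicate 4, T2 replicate 2 and T2 replicate 3 (-0.46 to -0.33). Itgav was called at no time, with a difference of 0.10 at T1. Nor was Itga8, which was well above background on no T0 array, so that no size is given. The binding proteins Itgb1bp1 and Itgb3bp fell at T4 with a difference of -0.23 ± 0.08 (SE, adjusted p = 0.0235) and -0.37 ± 0.14 (SE, adjusted p = 0.037). Itgb1bp1 also fell at T8 with a difference of -0.22, and these calls were lost without T0 replicate 1, T0 replicate 3 and T4 replicate 2 (-0.27 to -0.19) and without T0 replicate 1, T0 replicate 3, T8 replicate 1, T8 replicate 3 and T8 replicate 4 (-0.26 to -0.18).

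**Figure D4:**
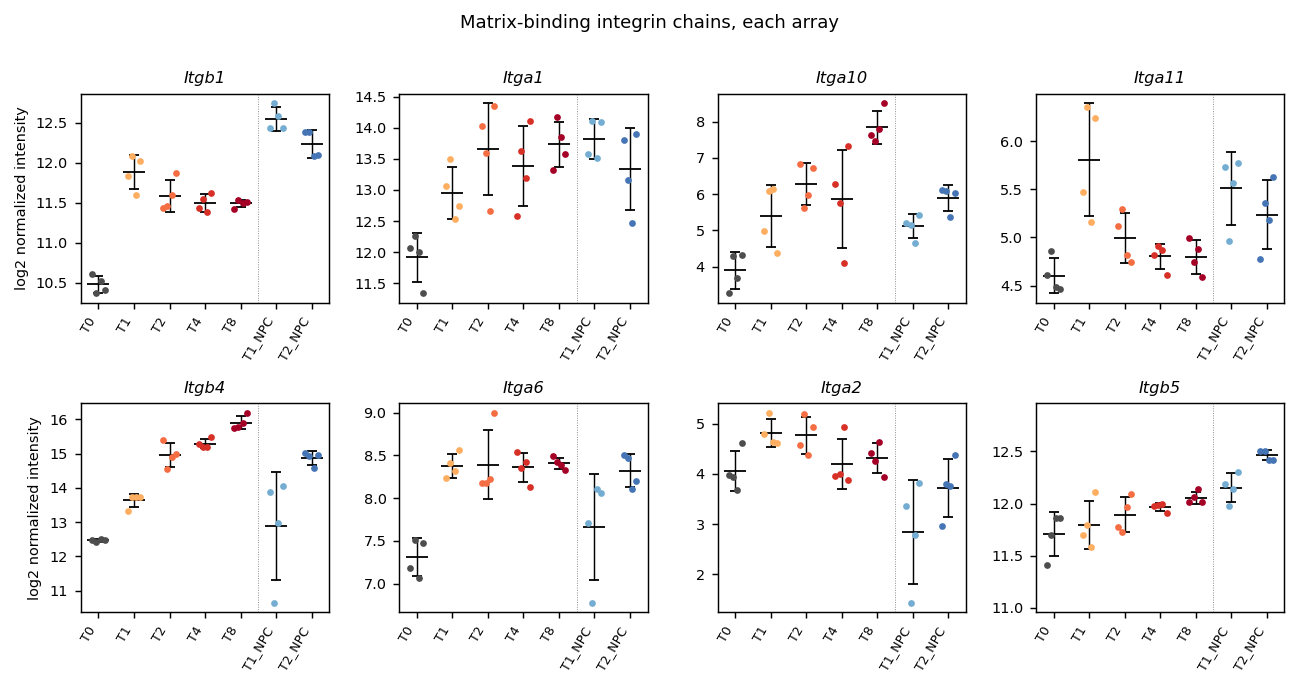
Level of 8 integrin genes of matrix receptors (log2, y axis) in the 7 groups (x axis), with a point for each array and a bar for the mean ± SD of 4 arrays. Itgb4 climbed from 12.41 to 12.49 at T0 to 15.75 to 16.19 at T8, and Itga10 from 3.28 to 4.33 to 7.46 to 8.50.

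Cadherins split. Cdh1 rose most among the 53 genes at all 4 times, while 10 cadherins fell throughout. Cdh1 (E-cadherin), the epithelial cadherin that Schwann cells also carry, was at 2.97, 4.43, 4.19 and 4.44 at T0, and 8.70, 10.10, 10.18 and 6.75 at T1. It was at 11.60, 9.73, 10.65 and 10.49 (T2), 11.63, 10.87, 9.72 and 11.97 (T4), and 12.99, 12.29, 12.90 and 13.03 (T8). No injured array came near T0, where Cdh1 was well above background on 3 arrays. The lowest signals well above background on the T0 arrays were 4.10, 3.90, 4.02 and 4.09. Cdh1 lay below this in T0 replicate 1 and little above it in the other replicates, which limits the size of its rises. Cdh1 rose by 4.93 ± 0.62 (SE, adjusted p = 7.68e-07) at T1, by 6.61 and 7.04 at T2 and T4, and by 8.80 ± 0.62 (SE, adjusted p = 1.20e-10) at T8. The Schwann cell markers given above moved in the same order, and their part was not tested.

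Cdh5 (VE-cadherin), the cadherin of endothelial junctions, was at 6.44, 6.14, 6.25 and 6.19 at T0, and 7.23, 7.45, 7.00 and 7.31 at T1, and at 7.30, 7.27, 7.62 and 7.32 (T2), 7.31, 7.10, 6.48 and 8.04 (T4), and 7.41, 8.22, 7.89 and 8.24 (T8). Every injured array was above the T0 arrays. Cdh5 rose by 0.99 ± 0.23 (SE, adjusted p = 0.00122) at T1 and 1.68 ± 0.23 (SE, adjusted p = 3.36e-06) at T8, where the mean of the 7 endothelial markers ran from 8.33 to 8.65 and 2 of them rose. Cdh17, known from gut epithelium, rose by 1.54 ± 0.36 (SE, adjusted p = 0.00123) at T1, and its 2 probes differed by 0.22 and 2.86. Cdh11, known from mesenchyme, was called at T8 only, by 0.58 ± 0.23 (SE, adjusted p = 0.0492). Its 4 probes ran from 0.04 to 0.86 at T8, where 3 of them were called higher, and from -0.75 to 0.13 at T1. Cdh19, known from Schwann cell precursors and myelinating glia, was at 5.64, 6.48, 6.28 and 5.86 at T0, and 5.00, 5.16, 5.89 and 5.23 at T1, and at 6.42, 6.53, 6.90 and 6.29 at T8. The groups overlapped at T1 and T8. It fell with a difference of -0.74 ± 0.28 (SE, adjusted p = 0.0373) at T1, a call lost without T0 replicate 2, T0 replicate 3, T1 replicate 1, T1 replicate 2 and T1 replicate 4 (-0.93 to -0.61), and later differed by 0.08, 0.50 and 0.47. Junction-crossing probes of Cdh5 and Cdh19 are shown for these vessel and Schwann cell cadherins.
Cdh5 probe, rn4 chr19:788852-790286, minus strand: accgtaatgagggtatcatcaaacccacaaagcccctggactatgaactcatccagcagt
Cdh19 probe, rn4 chr13:18227642-18230162, minus strand: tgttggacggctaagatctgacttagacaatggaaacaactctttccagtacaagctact

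Most type II cadherins, which in the nervous system sort neurons into groups, fell. Of 10, 6 fell and 1 rose at T1, with a median difference of -1.16 (-0.91 with the dim gene Cdh12 at its bound), and 6 fell and 2 rose at T8. Over all gene names 25.1% fell and 19.1% rose at T1, with a median of -0.10, and 21.5% fell and 18.2% rose at T8. Cdh7 was at 9.23, 8.56, 8.81 and 8.53 at T0, and 7.36, 6.58, 7.27 and 5.54 at T1, and at 5.51, 7.14, 6.95 and 5.09 (T2), 6.05, 6.38, 7.02 and 7.23 (T4), and 6.02, 6.28, 6.42 and 6.03 (T8), with no overlap with T0. It fell by 2.09 at T1 (SE 0.45, adjusted p = 4.91e-04) and 2.59 at T8 (SE 0.45, adjusted p = 5.31e-05). Cdh8, a cadherin of sensory and motor circuits, was -1.79 and -1.87 from T0 at T1 and T8, and Cdh10 -1.60 and -1.27. Cdh9 fell with a difference of -1.97 ± 0.69 (SE, adjusted p = 0.0239) at T1, a call lost without T0 replicate 2 and T1 replicate 4 (-2.15 to -1.70). At T2, where no array was well above background, it was at least 3.31-fold lower, and the T4 call was lost without T4 replicate 1 (-2.17 to -1.65). Cdh6 fell at T2 with a difference of -0.61 ± 0.22 (SE, adjusted p = 0.0282), lost without T0 replicate 1, T0 replicate 4, T2 replicate 1 and T2 replicate 4 (-0.77 to -0.40).

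Cdh12, a brain cadherin, was at 5.14, 4.84, 4.24 and 4.84 at T0, and 3.40, 3.14, 3.76 and 2.49 at T1, and at 1.50, 3.44, 1.73 and 1.55 (T2), 3.07, 2.78, 1.55 and 3.32 (T4), and 1.50, 2.36, 4.08 and 2.56 (T8). The injured arrays lay below the T0 arrays, 3 of which were well above background. Cdh12 was not called at T1 (adjusted p = 0.0538), was at least 1.86-fold lower at T2 (adjusted p = 0.00159) and at least 2.13-fold lower at T4 (adjusted p = 0.013), and fell with a difference of -2.14 ± 0.65 (SE, adjusted p = 0.0103) at T8, where 1 array was well above background. The T4 call was lost without T4 replicate 3 (adjusted p = 0.0561). Its junction-crossing probe is shown as that of a neuronal cadherin.
Cdh12 probe, rn4 chr2:72596344-72598473, plus strand: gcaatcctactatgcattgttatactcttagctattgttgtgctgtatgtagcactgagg

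Cdh2 (N-cadherin), carried by neurons and neural precursors, was at 12.17, 11.90, 11.61 and 11.66 at T0, and 11.47, 11.31, 11.83 and 11.27 at T1, and at 11.19, 11.70, 11.17 and 11.30 at T8, with overlap. It fell with a difference of -0.37 ± 0.13 (SE, adjusted p = 0.0295) at T1 and -0.50 ± 0.13 (SE, adjusted p = 0.00415) at T8. Its calls at T1, T2 and T4 each held in 23 of 28 leave-one-out fits. All losses came from leaving out arrays of the compared groups, and the other arrays cannot change the difference. The calls were lost at T1 without T0 replicate 1, T0 replicate 2, T1 replicate 1, T1 replicate 2 and T1 replicate 4 (-0.49 to -0.25). At T2 they were lost without T0 replicate 1, T0 replicate 2, T2 replicate 1, T2 replicate 3 and T2 replicate 4 (-0.44 to -0.25) and at T4 without T0 replicate 1, T0 replicate 2, T4 replicate 1, T4 replicate 2 and T4 replicate 4 (-0.43 to -0.24). Cdh15 (M-cadherin) fell with a difference of -1.54 ± 0.23 (SE, adjusted p = 7.95e-06) at T1 and -1.65 at T8, and Cdh23, of the tip links of hair cells, by -1.56 ± 0.19 (SE, adjusted p = 5.45e-07) and -1.33. Cdh13, which lacks a cytoplasmic tail, Cdh16 of the kidney and Cdh22 differed by -0.69, -0.96 and -0.69 at T1. Neuron markers fell as well, 5 of 6 at T1, with mean levels from 12.41 to 12.68 at T0 and 10.46 to 11.36 at T1. Their part in the falls of the cadherins was not tested.

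**Figure D5:**
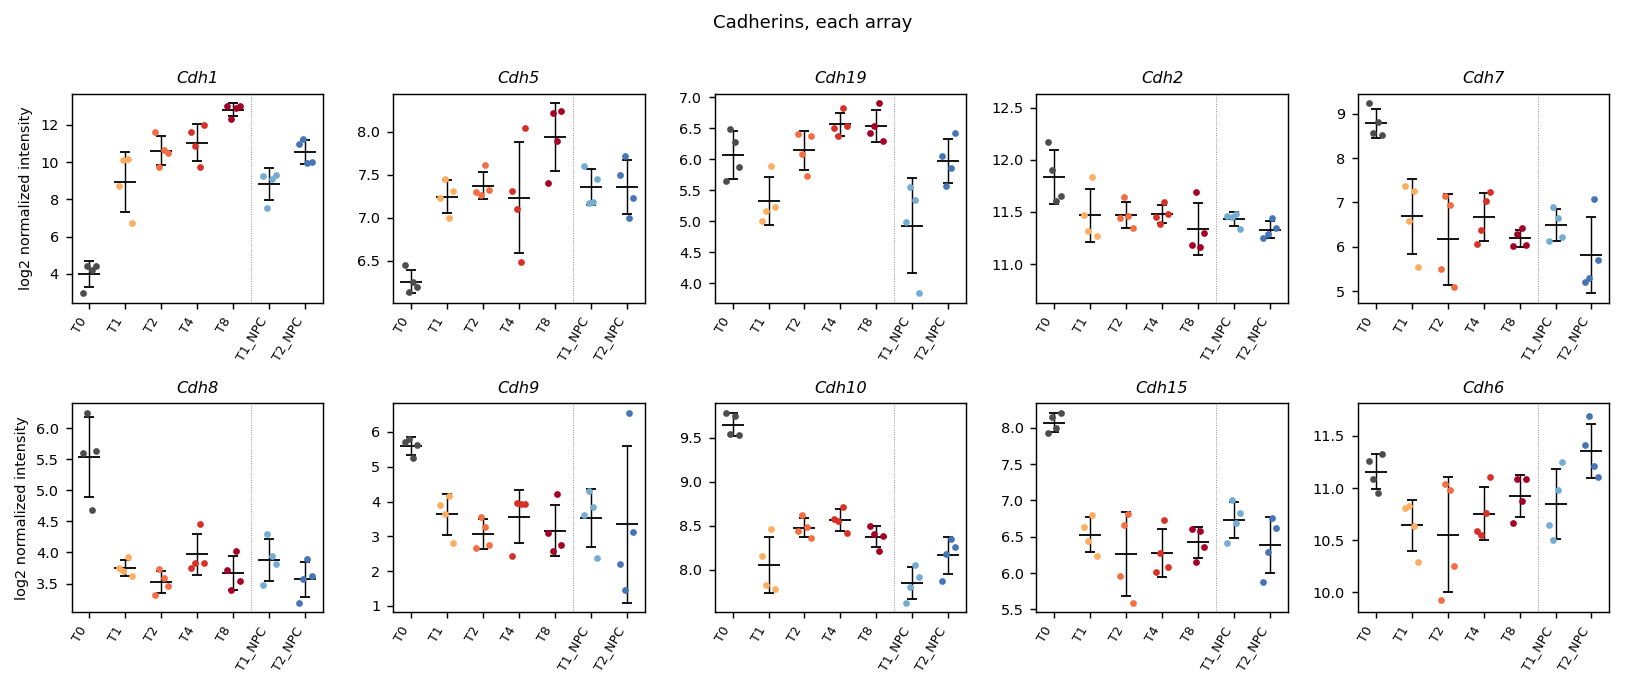
Level of 10 cadherin genes (log2, y axis) in the 7 groups (x axis), with a point for each array and a bar for the mean ± SD of 4 arrays. Cdh1 lay at 2.97 to 4.44 at T0 and at 12.29 to 13.03 at T8, while Cdh7 went from 8.53 to 9.23 to 6.02 to 6.42.

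Between successive injury times few genes changed. From T1 to T2 Vcam1 alone rose, by 0.86 ± 0.22 (SE, adjusted p = 0.0495), beside 1.48% of all gene names (0.815% higher and 0.665% lower), and when 1 array was left out in turn this call passed in 5 of 28 such fits (0.66 to 1.00). It was lost with the brightest probe, with only the compared groups or with a replicate block. From T2 to T4 limma called 0 of 53 beside 0.0761%, with 3 at an unadjusted p under 0.05. From T4 to T8 it called 0 beside 0.0902%, with 5 at an unadjusted p under 0.05.

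At T8 against T1, 5 genes were higher and 6 lower, beside 9.87% of all gene names (5.45% and 4.42%), and 9 were higher and 5 lower after upper-quartile scaling. Cdh1 was higher by 3.87 ± 0.62 (SE, adjusted p = 1.48e-04), Itga10 by 2.44 ± 0.49 (SE, adjusted p = 0.00144), Itgb4 by 2.27 ± 0.42 (SE, adjusted p = 7.05e-04), Cdh19 by 1.21 ± 0.28 (SE, adjusted p = 0.00603) and Vcam1 by 0.80 ± 0.22 (SE, adjusted p = 0.0197). Schwann cell markers were higher too, 3 of 5. Sele differed by -1.31 ± 0.31 (SE, adjusted p = 0.00696), Itga11 by -1.01 ± 0.23 (SE, adjusted p = 0.00461), Itgb2 by -0.91 ± 0.23 (SE, adjusted p = 0.0102), Itga5 by -0.86 ± 0.19 (SE, adjusted p = 0.00374) and Itgb1 by -0.39 ± 0.12 (SE, adjusted p = 0.0341). Selp differed as well (adjusted p = 0.0465), with levels of 2.94, 4.76, 3.27 and 3.14 at T1, and 1.39, 1.30, 2.12 and 1.31 at T8 that were dim in both, and, with each array left out in turn, it passed in 11 of 28 such fits. It was well above background on 1 T1 array and on no T8 array, so no size of the difference is given. Itgb1 was not called without T1 replicate 1, T1 replicate 2, T1 replicate 4, T8 replicate 1, T8 replicate 2, T8 replicate 3 and T8 replicate 4 (-0.49 to -0.33), and Vcam1 not without T1 replicate 1, T1 replicate 2 and T8 replicate 2 (0.72 to 0.94). The median of the 53 genes was -0.08, beside 0.00 over all gene names.

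After NPC transplantation at the time of contusion 6 of the 53 genes were called at 1 week, 2 higher and 4 lower, beside 11.9% of all gene names (5.45% and 6.46%). After transplantation 1 week later 5 were called at 2 weeks, 3 higher and 2 lower, beside 9.47% (4.62% and 4.85%). Medians were -0.04 and 0.01, against -0.01 and -0.03 over all gene names. Both comparisons set slides of their own against other slides, and with only the compared groups 0 and 3 genes were called, and 3 and 3 with the slide as a random block. Itgb1 and Itgb5 rose in both. The comparisons with T0 and with transplantation share the T1 or T2 arrays. Side by side, 1 gene (Itga6) rose at T1 and fell in T1_NPC, where 1.67% of all gene names did so, and 0 fell at T1 and rose in T1_NPC, where 1.07% did. For T2 and T2_NPC 0 genes rose and then fell, beside 1.26%, and 1 (Cdh6) fell and then rose, beside 1.14%.

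Itgb1 was at 12.44, 12.74, 12.59 and 12.43 at T1_NPC, and 12.39, 12.39, 12.09 and 12.09 at T2_NPC, above T1 and T2 given above. It rose by 0.67 ± 0.12 (SE, adjusted p = 8.47e-04) after the early and 0.65 ± 0.12 (SE, adjusted p = 0.00126) after the later transplantation. The 2 Itgb1 probes differed by 0.59 and 0.74 in T1_NPC, both called. In T2_NPC they differed by 0.33 and 0.98, and 1 of them was called. Itgb5 was at 11.70, 11.79, 11.58 and 12.11 at T1, and 12.19, 11.97, 12.14 and 12.31 at T1_NPC, and at 11.78, 11.73, 11.97 and 12.10 at T2, and 12.51, 12.50, 12.42 and 12.42 at T2_NPC. It rose by 0.36 ± 0.11 (SE, adjusted p = 0.0444) and 0.57 ± 0.11 (SE, adjusted p = 0.00308). The T1 and T1_NPC arrays of Itgb5 overlapped, and, with each array left out in turn, that call passed in 11 of 28 such fits (0.29 to 0.46), while T2 and T2_NPC did not overlap. Itgb1 had also risen at T1 and at T2.

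In T1_NPC Itga2, a collagen receptor chain, was at 4.80, 5.22, 4.64 and 4.63 at T1, and 3.35, 1.43, 2.78 and 3.82 at T1_NPC, the latter well above background on no array. It was at least 1.41-fold lower (limma adjusted p = 0.00144). Fewer spots were well above background in T1_NPC, 74.5% to 76.4% on its arrays against 79.0% to 81.9% at T1. The lowest such signal was 4.21 to 4.44 on the T1_NPC arrays and 3.39 to 3.98 on those of T1. The part of this in the differences of the dim genes Itga2 and Itgb6 was not tested. Itgb6 was at 5.31, 5.83, 5.45 and 5.22 at T1, and 4.81, 4.57, 4.93 and 2.79 at T1_NPC and fell with a difference of -1.18 ± 0.34 (SE, adjusted p = 0.0276), with 2 of 4 T1_NPC arrays well above background, a call lost without T1 replicate 2, T1 replicate 3 and T1_NPC replicate 4 (-1.40 to -0.68). Itga6 was at 8.23, 8.41, 8.32 and 8.56 at T1, and 7.71, 6.78, 8.11 and 8.06 at T1_NPC and fell with a difference of -0.72 ± 0.22 (SE, adjusted p = 0.0338), and Itgb8 fell with a difference of -0.56 ± 0.13 (SE, adjusted p = 0.00896). T1_NPC replicate 2 was lowest for Itga2 and Itga6, and without it Itga6 differed by -0.42 (adjusted p = 0.14), a call also lost without T1 replicate 2, T1 replicate 3 and T1 replicate 4. Itga6 had risen and Itgb8 had fallen at T1. Of the cell type markers in T1_NPC, 1 of 7 of endothelium rose (Cldn5, 0.51), and 1 of 7 of microglia and macrophages (P2ry12, -1.06), 1 of 6 of platelets (Gp1bb, -0.77) and 1 of 6 of skeletal muscle (Acta1, -0.66) fell. The mean level of the microglia and macrophage markers ran from 10.87 to 12.43 in T1_NPC and from 12.31 to 12.62 at T1. Their part in the T1_NPC differences was not tested.

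In T2_NPC Cdh6, a type II cadherin, was at 9.93, 11.04, 10.99 and 10.25 at T2, and 11.41, 11.69, 11.21 and 11.10 at T2_NPC and rose by 0.80 ± 0.22 (SE, adjusted p = 0.0217), after it had fallen at T2. This call was lost without T2 replicate 1, T2 replicate 4, T2_NPC replicate 1 and T2_NPC replicate 2 (0.59 to 0.96). Itgae was at 8.05, 7.86, 8.17 and 8.16 at T2, and 7.89, 6.68, 7.48 and 6.66 at T2_NPC, overlapping, and fell with a difference of -0.88 ± 0.24 (SE, adjusted p = 0.0236), lost without T2 replicate 1, T2 replicate 3, T2_NPC replicate 2 and T2_NPC replicate 4 (-1.12 to -0.71). The 2 Itgae probes differed by -1.45 and -0.32, and 1 of them was called. Itgb1bp1 was at 11.98, 11.89, 11.84 and 11.91 at T2, and 11.56, 11.56, 11.40 and 11.63 at T2_NPC without overlap and fell with a difference of -0.37 ± 0.08 (SE, adjusted p = 0.00519). Itgam, Itgal, Itgb2, Itga4, Icam1, Vcam1, Cdh1, Cdh2, Cdh5 and Cdh19 were not called after either transplantation, with differences from -0.55 (Itgal in T1_NPC) to 1.01 (Itgam in T2_NPC). Of the markers in T2_NPC, 2 of 7 of oligodendrocytes (Mbp, 1.43, and Mobp, 0.70), 1 of 7 of endothelium (Cldn5, 0.52), 1 of 3 of red blood cells (Hbb, 2.11) and 1 of 6 of skeletal muscle (Myh4, 1.81) rose, and 2 of 6 of platelets fell (Gp1ba, -0.63, and Pf4, -1.04). Mean levels of oligodendrocyte markers ran from 14.17 to 14.42 at T2 and from 14.73 to 14.84 in T2_NPC, without overlap. Those of neutrophil markers, 0 of 6 of which were called, ran from 3.74 to 5.70 and from 3.33 to 3.58, also without overlap. The part of these markers in the T2_NPC differences was not tested. The effects of the 2 transplantations differed for 0 of 53 genes in limma, beside 0.299% of all gene names, with 8 at an unadjusted p under 0.05.

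The genes that work with these receptors were taken from lists of partners. Of 18 genes of integrin activation and the adhesion complex, 11 rose and 2 fell at T1 and the same numbers at T8, beside 19.1% and 25.1% of all gene names at T1 and 18.2% and 21.5% at T8. The median difference was 0.71 at T1 and 0.60 at T8, beside -0.10 and -0.04 over all gene names. Parvg, the parvin of blood cells, rose by 3.72 ± 0.24 (SE, adjusted p = 1.37e-11), Fermt3 (kindlin-3), which activates leukocyte integrins, by 3.36 ± 0.17 (SE, adjusted p = 2.43e-13) and Apbb1ip (RIAM), which brings talin to integrins, by 2.14 ± 0.27 (SE, adjusted p = 9.44e-07). Pxn (paxillin) and Tln1 (talin) rose by 2.00 and 1.81, whereas Rasgrp2, an activator of Rap1, fell (-1.18). In T1_NPC 2 of the 18 rose and 1 fell, beside 5.45% and 6.46% of all gene names, and in T2_NPC 2 rose and 2 fell, beside 4.62% and 4.85%. Bcar1, a scaffold of integrin signalling, rose by 0.91 and 1.17 and Pxn by 0.48 and 0.57, Lims1 (PINCH) fell in both (-0.59 and -0.53), and Rap1b fell in T2_NPC (-0.71).

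Of 6 catenins 3 rose and 1 fell at T1 and at T8, where 44.1% and 39.7% of all gene names were called in either direction, with a median difference of 0.18 and 0.44. At T1 Ctnnb1 (beta-catenin), which links cadherins to alpha-catenin, rose by 0.95 ± 0.11 (SE, adjusted p = 2.09e-07) and Ctnna1 by 0.86, while Ctnna2, the alpha-catenin of neurons, fell with a difference of -0.97 ± 0.33 (SE, adjusted p = 0.021). After transplantation 1 of the 6 rose in T1_NPC and 3 in T2_NPC, and 0 fell, beside 11.9% and 9.47% called over all gene names. Ctnnd2 (delta-catenin) rose by 0.85 and 1.35 in T1_NPC and T2_NPC. Ctnna1 and Jup (plakoglobin) rose in T2_NPC, by 0.94 and 0.57. Of 12 partners of leukocyte adhesion 9 rose and 1 fell at T1, and 7 rose and 1 fell at T8, beside the same shares of all gene names, with a median difference of 0.76 and 0.60. Cd34, a sialomucin of vessels and progenitors, rose by 3.06 ± 0.34 (SE, adjusted p = 1.06e-07), Cd44, the hyaluronan receptor, by 1.93 ± 0.30 (SE, adjusted p = 1.32e-05) and Glycam1, a mucin-like glycoprotein, by 1.69 ± 0.45 (SE, adjusted p = 0.00356) at T1. Jam3, a junctional adhesion molecule, fell (-1.04). In T1_NPC 1 of the 12 rose and 1 fell, beside 5.45% and 6.46% of all gene names, and in T2_NPC 3 rose and 0 fell, beside 4.62% and 4.85%. Cd34 fell in T1_NPC (-1.32), and Jam3 rose after both transplantations, by 0.68 and 0.54. F11r and Jam2 rose in T2_NPC, by 0.61 and 0.41. Itgax, Itga2b, Icam4, Cdh4, Cdh18, Cdh20 and Cdh24 were not analysed here.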

How the data were processed

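Values were read from the deposited series table, whose log2 values the authors had extracted from 1-colour arrays (Agilent Feature Extraction 10.7.1.1, probes placed on rn4, per the labels and file headers) and quantile normalised. The deposited scanner files hold the authors' processed intensity values per spot, which were used for alternatives and for background flags. Spots were named by GeneName, control spots were left out (1639 of 45018), values of a probe's spots and then of a gene's probes were averaged. Group means were fitted over 28 arrays with lmFit and eBayes in limma 3.58.1 (R 4.3.3), and p-values were adjusted over 35469 gene names. Group and replicate came from the labels, and the study describes the 4 arrays of each group as biological replicates. The fit was tested on simulated data.

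Members and lists were chosen with earlier results of these data known. The named genes were a fixed set (Itgam, Itgb2, Itgal, Itgax, Itga4, Itgb1, Icam1, Icam2, Vcam1, Sele, Selp, Cdh1, Cdh2, Cdh5 and Cdh19), in each comparison the called members with the 4 greatest rises and the 4 greatest falls, members called both after injury and after transplantation, and the 3 largest called genes of each partner list at T1 and after each transplantation. Other members were named after their values were seen. 1 member is counted among the 53 but not reported here. Marker lists of 12 cell types were followed as mean levels and counts. Between 74.5% and 82.7% of spots were well above background on an array, and 0 were saturated. Alternatives were the scanner intensities (matched by rank, under deposited samples, scaled to the upper quartile, or corrected with normexp, offset 50, on median signals because mean signals were not in every file), the 12 undisputed arrays, the brightest probe, dim probes left out (fewer than 4 arrays well above background), outlier spots left out, only the compared groups, trended robust eBayes, a 2-fold minimum, slide, scan session or replicate number as a block, each session alone, and each array left out. The choice to leave out outlier spots was made after seeing the data. Promoters came from RefSeq (GRCr8). The letters searched for the kappa-B motif were changed after a first search, the promoter of Itga4 was then dropped from those printed, and the stretch shared by the Itgam and Itgal probes was derived from these probes after their letters had been read, so motif shares are descriptions.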

Additional observations from a re-analysis of the deposited data

Results flagged for a closer look

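In 19 of 217 groups of 4 arrays of 31 named genes, 1 array lay far from the others: its gap to the nearest, divided by the whole range, was above Dixon's 95% critical value for 4 arrays. Chance gives about 1 in 20 such groups. The ratio stands in parentheses after each level. 

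Leukocyte integrins and their ligands come first. Itgam in T2_NPC replicate 3 was at 12.03 against 11.18 to 11.20 (0.984) and Itgal in T8 replicate 2 was at 6.09 against 6.50 to 6.55 (0.894). Itgal in T1_NPC replicate 2 was at 5.16 against 7.31 to 7.74 (0.836) and Vcam1 in T2 replicate 1 was at 15.65 against 14.83 to 14.88 (0.932). Selp in T8 replicate 3 was at 2.12 against 1.30 to 1.39 (0.887).

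Cadherins gave the next values. Cdh1 in T0 replicate 1 was at 2.97 against 4.19 to 4.44 (0.83) and Cdh1 in T1_NPC replicate 2 was at 7.52 against 9.09 to 9.32 (0.868). Cdh5 in T2 replicate 3 was at 7.62 against 7.27 to 7.32 (0.859) and Cdh9 in T4 replicate 1 was at 2.42 against 3.92 to 3.96 (0.97). Cdh8 in T4 replicate 3 was at 4.45 against 3.76 to 3.84 (0.889) and Cdh12 in T2 replicate 2 was at 3.44 against 1.50 to 1.73 (0.883).

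Matrix integrins gave the rest. Itga10 in T2_NPC replicate 3 was at 5.37 against 6.03 to 6.11 (0.887) and Itgb4 in T1 replicate 1 was at 13.33 against 13.72 to 13.74 (0.966). Itgb4 in T2_NPC replicate 3 was at 14.58 against 14.93 to 15.005 (0.835) and Itga2 in T4 replicate 3 was at 4.94 against 3.88 to 4.00 (0.882). Itgb6 in T2_NPC replicate 3 was at 4.87 against 5.36 to 5.45 (0.84) and Itga6 in T2 replicate 4 was at 8.997 against 8.17 to 8.22 (0.941). Itgb8 in T0 replicate 1 was at 6.16 against 6.45 to 6.48 (0.918) and Itgb8 in T8 replicate 3 was at 6.52 against 6.12 to 6.16 (0.904). Replicate 3 of T2_NPC was the array for Itgam, Itga10, Itgb4 and Itgb6, and replicate 2 of T1_NPC for Itgal and Cdh1. Itgb4 was also far lower in T1_NPC replicate 2 (10.65) than on the other T1_NPC arrays without passing the value.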

How the results depend on the processing

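Calls were followed for 108 results of named genes. In 81 of 108 the call held without each of the 28 arrays in turn, and 48 were lost only when scanner files were taken under their deposited samples. Under that setting 0 of 53 genes were called at T1, T2, T4 and T8 against T0, at all 4 times together, at T2 and T8 against T1, and after either transplantation. These differences then changed sign: 0.21 for Itgae at T1, 0.16 for Cdh6 at T2, 0.26 for Itgb1 and 0.40 for Itgb2 at T8 against T1, and, in T1_NPC against T1, 0.32 for Itga2, 0.41 for Itga6, -0.088 for Itgb1, -0.14 for Itgb5, 0.44 for Itgb6 and 0.34 for Itgb8. The cause was not tested.

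Counts of called genes moved by over 1.5 times as follows, and the cause was not tested. The undisputed arrays gave 19 at T1, 0 at T2 against T1 and 3 at T8 against T1. A 2-fold minimum gave 21 at T1, 0 at T2 against T1, 7 at T8 against T1, 2 in T1_NPC and 0 in T2_NPC. Scan session 1 alone, with fewer arrays, gave 18 at T1, 18 at T4, 15 at all 4 times, 0 at T2 against T1 and 1 at T8 against T1, and session 2 alone gave 1 at T4 against T2 and 5 at T8 against T1. At T2 against T1, where 1 gene was called, the count was 0 with the brightest probe or the replicate block, 2 with normexp, with dim probes left out, with trended robust eBayes or with the slide as a random block, and 6 with slide or session as a fixed block. Normexp gave 1 at T8 against T4. The random slide block gave 3 in each transplantation, only the compared groups gave 0 and 3, and upper-quartile scaling gave 1 for the difference between transplantations. With outlier spots left out no count moved by that much.

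Upper-quartile scaling moved the median of all gene names from -0.10 to -0.28 at T1, from 0.00 to 0.13 at T2 against T1, from 0.00 to 0.16 at T8 against T1, from -0.01 to 0.11 in T1_NPC and from -0.00 to 0.14 for the difference between transplantations. Without 1 array in turn 25 to 37 genes were called at T1, 26 to 31 at T2, 25 to 30 at T4, 27 to 32 at T8, 21 to 26 at all 4 times, 0 to 4 at T2 against T1, 0 to 0 at T4 against T2, 0 to 2 at T8 against T4, 8 to 13 at T8 against T1, 3 to 6 in T1_NPC, 3 to 8 in T2_NPC and 0 to 0 for their difference. Without T1_NPC replicate 2 the counts were 4 at T2 against T1, 5 in T1_NPC and 8 in T2_NPC. Samples with the same replicate number shared only a number: the correlation of their deviations ran from -0.34 to 0.30 and not every pair was over 0.1. With the replicate number as a block 34, 30, 28 and 31 genes were called at T1, T2, T4 and T8, 10 at T8 against T1, and 6 and 5 after transplantation. Signal over background limits Itga4, Itga2, Itga8, Itgb1bp2, Cdh9, Cdh12, Cdh26 and Selp, each well above background on no array of at least 1 group. It also limits the sizes of the rises of Itgal, Itga10 and Cdh1 from T0. Their T0 levels lay below or little above the lowest signals well above background.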
